A study of Mus musculus with 2 samples.

Results

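The 10 genes of the regulated secretory pathway followed here in newborn mouse midbrain were the granins Chga, Chgb, Scg2, Scg3 and Vgf, the processing enzymes Pcsk1, Pcsk2 and Cpe, and the enzyme partners Scg5 and Pcsk1n. They were taken by symbol, from a list made with earlier results of these data known, and all 10 had a row among the 43346 mouse genes of the tables. The data are 2 amplified RNA-seq libraries, 1 from the whole midbrain of pup 1 and 1 from that of pup 3, both B6NCrl mice at postnatal day 0 with no treatment named and sex not recorded. Although filed as single-cell sequencing, the input was RNA of the tissue. Each library was made from 13 pg of RNA, the amount given as 1 cell-equivalent, so a gene of few copies can be missed when the RNA is sampled. The pups form a single group, no condition was compared, and nothing in the design allows a test across pups. The libraries held 26036966 and 32408632 expected counts over mouse genes.

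Neurons and endocrine cells store peptides in dense-core granules. Granins are acidic proteins that aggregate with the cargo in the forming granule, and several are themselves cut into peptides. The convertases encoded by Pcsk1 and Pcsk2 cut precursors after a pair of basic residues, and carboxypeptidase E, encoded by Cpe, then removes those residues. Scg5 encodes 7B2, which the Pcsk2 convertase needs to mature, and Pcsk1n encodes proSAAS, an inhibitor of the Pcsk1 convertase.

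Scg2 was the member whose transcripts differed most between the libraries, and the stretch that separates its 2 transcripts is shown for that reason, chosen after the values were seen. The longer form, ENSMUST00000049972.5, holds 120 coding bases at chr1:79435932-79436051 on the minus strand of GRCm38 (the assembly also called mm10) that the shorter form, ENSMUST00000185234.1, splices out. Both lines run 5′ to 3′ from the GENCODE M21 transcripts with 15 bases on each side. Capitals mark the skipped segment in the longer form, and the 3 bases on each side of the join in the shorter form.
Scg2 longer form: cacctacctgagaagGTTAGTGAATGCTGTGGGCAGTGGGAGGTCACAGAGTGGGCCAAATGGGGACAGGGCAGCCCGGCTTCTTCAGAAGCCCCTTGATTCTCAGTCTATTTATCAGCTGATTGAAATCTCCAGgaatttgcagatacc
Scg2 shorter form: cacctacctgagAAGGAAtttgcagatacc
The segment begins with GT and ends with AG, the usual ends of an intron, and its length is a multiple of 3, so the coding length falls from 1851 to 1731 bases with the reading frame kept. The longer form also starts 78 bases further upstream.

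A gene was called detected at 1 TPM or more, a measure in which reads are divided by transcript length and scaled to a common total. By this rule 9 of the 10 members were detected in both pups and Pcsk1 in neither. Over all genes detected in either library, 60.8% were detected in both, and over genes whose mean TPM reached 20, the class of 8 members, 89.6% were. The members together made up 1949 TPM in pup 1 and 1668 TPM in pup 3, a mean of 1808 ± 199 (SD, n = 2), and 0.234% and 0.223% of counts. An SD beside a level below is likewise the spread of the 2 pups.

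**Figure D1:**
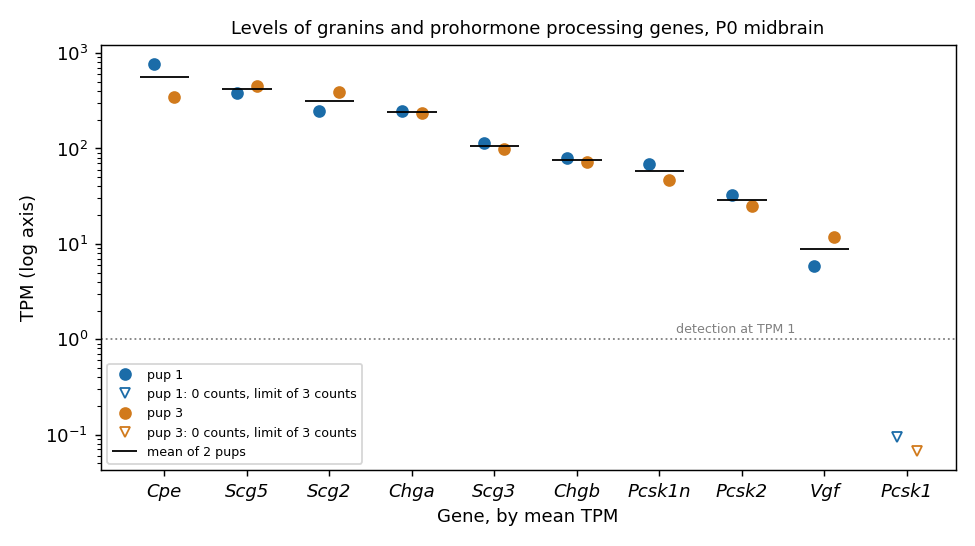
TPM (log axis) of each member in pup 1 (blue) and pup 3 (orange), ordered by the mean of both pups (black line). Cpe, Scg5, Scg2 and Chga lie above 200 in both pups, and the open triangles for Pcsk1 mark the limit that 0 counts allow.

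The 5 granins summed to 696 TPM in pup 1 and 802 in pup 3, a mean of 749 ± 74.8, and were led by Scg2 and Chga. Scg2, the precursor of the peptide secretoneurin (ENSMUSG00000050711.7, chromosome 1, 79434669 to 79440120), was read at 249 TPM in pup 1 and at 386 in pup 3, a mean of 318 ± 97.1. Chga, which encodes chromogranin A, the granin best known as a marker of endocrine cells (ENSMUSG00000021194.5, chromosome 12, 102554969 to 102565028), read 248 and 233 TPM, a mean of 240.5 ± 10.9. Scg2 and Chga thus stood level in pup 1, whereas Scg2 was the higher in pup 3. Chgb, encoding chromogranin B (ENSMUSG00000027350.8, chromosome 2, 132781278 to 132795079), read 78.8 and 71.7 TPM, a mean of 75.2 ± 4.97. Scg3, whose protein binds chromogranin A at the granule membrane (ENSMUSG00000032181.6, chromosome 9, 75643189 to 75684056), read 114 and 99.1 TPM, a mean of 107 ± 10.6. For Chga, Chgb and Scg3 the values of the pups lay close together. Vgf, a precursor induced by neurotrophins (ENSMUSG00000037428.10, chromosome 5, 137026392 to 137033351), was the lowest detected member at 5.88 and 11.8 TPM, a mean of 8.86 ± 4.21, from 235 and 673 counts. Its values in the pups were 2.01-fold apart, the widest relative spread among the granins.

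Of the enzymes, Cpe had the highest mean of all 10 members and Pcsk1 had no counts. The 3 enzymes summed to 801 TPM in pup 1 and 368 in pup 3. Cpe (ENSMUSG00000037852.7, chromosome 8, 64592542 to 64693054) was read at 768 TPM in pup 1 and at 343 in pup 3, a mean of 556 ± 300.3. It ranked 154 among mouse genes in pup 1 and 477 in pup 3. In pup 3 Cpe lay below Scg5 (451 TPM) and Scg2 (386). Pcsk2 (ENSMUSG00000027419.9, chromosome 2, 143546156 to 143816285) read 32.9 and 24.9 TPM, a mean of 28.9 ± 5.68, from 2479 and 2618 counts. Both pups were thus near each other for Pcsk2 and far apart for Cpe. Pcsk1 (ENSMUSG00000021587.4, chromosome 13, 75089826 to 75134861) had 0 counts in both libraries, which allows up to 3 counts, or 0.0944 TPM in pup 1 and 0.0676 in pup 3. The deposited upper bounds for Pcsk1 are higher, at 0.167 and 0.121 TPM, and were used for its ratios. This limit covers counting error only, and it holds for the gene model of the files, whose coding transcript ENSMUST00000022075.4 has 2677 bases. In the later GENCODE M21 the same transcript has 5040 bases, of which 2259 are coding, and reads from bases found only in the longer model would not have been counted.

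The partners were both read at higher levels than the convertases they act on, and together made up 452 TPM in pup 1 and 498 in pup 3. Scg5 (ENSMUSG00000023236.7, chromosome 2, 113776362 to 113829121) read 383 and 451 TPM, a mean of 417 ± 48.2, and ranked 393 and 350 among mouse genes. Its mean was second to that of Cpe, and in pup 3 it was the highest member. Pcsk1n (ENSMUSG00000039278.10, chromosome X, 7919822 to 7924410) read 69.0 and 46.9 TPM, a mean of 57.9 ± 15.6.

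In order of mean level the members were Cpe, Scg5, Scg2, Chga, Scg3, Chgb, Pcsk1n, Pcsk2, Vgf and Pcsk1. The ranges of the pups overlapped between Cpe and Scg5 and between Scg5 and Scg2. Within each pup, however, Scg5 exceeded Scg2, with 383 against 249 TPM in pup 1 and 451 against 386 in pup 3. The deposited intervals of Scg5 and Scg2 did not overlap in either pup. Cpe exceeded Scg5 in pup 1 and was below it in pup 3. The other 7 neighbouring pairs had ranges that did not overlap, but Scg2 and Chga were apart only by 249.19 against 248.18 TPM. The deposited TPM intervals, which surround the posterior mean and not the TPM itself, overlapped for this pair in pup 1, with 236 to 246 for Scg2 and 235 to 246 for Chga.

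Ratios within a library do not depend on its scaling, and 9 of 10 gene pairs lay on the same side in both pups with deposited intervals that did not overlap in either. Among granins, Chga exceeded Chgb 3.15-fold in pup 1 and 3.25-fold in pup 3, and exceeded Scg3 2.17-fold and 2.35-fold. Scg2 exceeded Vgf 42.4-fold and 32.6-fold. Scg2 over Chga, at 1.00 and 1.66, was given no direction.

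The convertase pairs put Pcsk2 first. Pcsk2 was at least 183-fold higher than Pcsk1 in pup 1 and at least 193-fold in pup 3 by the deposited bounds. These ratios take the lower bound of Pcsk2 over the upper bound of Pcsk1, and they cover counting error only. Molecules missed when the RNA was sampled and reads outside the Pcsk1 model are not covered. Against Furin, the convertase of the constitutive pathway that is found in nearly all cells (4.50 and 3.41 TPM), Pcsk2 was 7.31-fold and 7.29-fold higher. Scg5 exceeded Pcsk2 11.6-fold and 18.1-fold. By the same bounds Pcsk1n was at least 384-fold and at least 363-fold higher than Pcsk1, so the inhibitor was read in both libraries and its target in neither.

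Cpe stood far above both enzymes paired with it. It exceeded Pam, which amidates the ends of peptides (17.2 and 6.09 TPM), 44.8-fold in pup 1 and 56.4-fold in pup 3. It exceeded Cpd, a carboxypeptidase of the constitutive pathway (14.9 and 0 TPM), 51.6-fold in pup 1. In pup 3, where Cpd had 0 counts and a deposited upper bound of 0.684 TPM, Cpe was at least 483-fold higher by the bounds. Sampling of the RNA is again not covered, and Cpd had 1903 counts in pup 1. Cpe and Pam were both lower in pup 3, and their ratio differed between the pups by less than either gene.

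**Figure D2:**
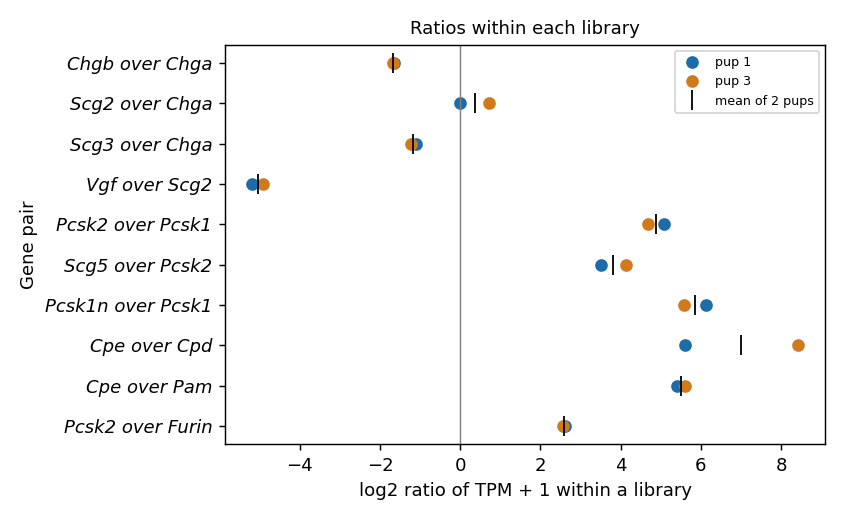
Log2 ratio of TPM + 1 for the 10 gene pairs within pup 1 (blue) and pup 3 (orange), with the mean as a black tick and equality at 0. Only Scg2 over Chga touches 0, and Pcsk2 over Furin and Chgb over Chga are nearly the same in both pups.

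Differences between the pups compare 2 libraries, with 1 library per pup and no replicate check. Genes were called over 4-fold apart when the ratio of counts, scaled by library totals, had an exact (Clopper-Pearson) 95% interval that lay wholly beyond 4-fold. None of the 9 members with a count was called, while 41.0% of the 14605 genes with a count in either library were, and 22.3% of the 6031 whose mean TPM reached 20. The median member differed 1.31-fold in TPM + 1, against 2.20-fold over all genes with a count. Within that more abundant class the medians were 1.24-fold for its 8 members and 1.86-fold for all its genes. None of the 10 neuronal and 5 glial marker genes described below was over 4-fold apart either.

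Vgf and Cpe were the members farthest apart, in opposite directions. By scaled counts the ratio of pup 3 over pup 1 was 2.30 for Vgf (exact 95% interval 1.98 to 2.68) and 0.502 for Cpe (0.492 to 0.512). Scg2 had a ratio of 1.79 (1.75 to 1.84) and Scg5 of 1.35 (1.31 to 1.39). These 2 members and Vgf were thus the ones higher in pup 3, while Pcsk1n, at 0.763 (0.720 to 0.809), and Pcsk2, at 0.848 (0.803 to 0.897), were lower there. Ratios of 1.05 for Chga, 1.02 for Chgb and 0.975 for Scg3 were near 1, and those of Chga and Chgb fell below 1 in TPM and when counts were scaled by edgeR's TMM, DESeq2's size factors or the spike-in total. Counting error alone enters these intervals, and amplification makes many reads from 1 molecule.

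**Figure D3:**
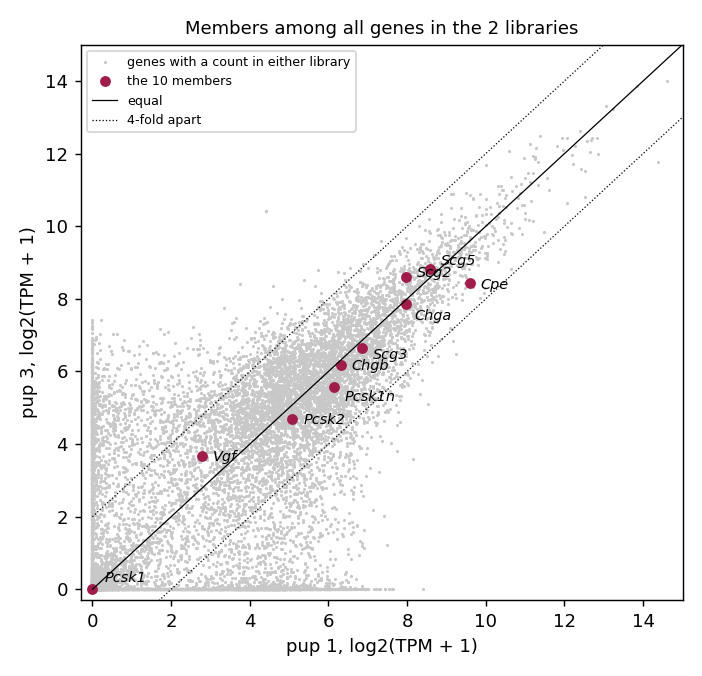
Log2(TPM + 1) in pup 1 (horizontal) and pup 3 (vertical) of genes with a count in either library (grey) and of the 10 members (red), with lines at equality and at 4-fold. All members with a count lie between the 4-fold lines, and Pcsk1 sits at 0.

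Transcript shares were compared for Scg2, Scg5, Vgf and Pcsk2, the 4 members that had 2 or more transcripts and reached 50 counts per library. All 4 kept the same leading transcript in both pups. Over the 5311 genes that met these limits, 62.8% did. Pcsk2 came wholly from its coding transcript ENSMUST00000028905.9 in both libraries. Scg5 came from ENSMUST00000024005.7 for 97.0% of its TPM in pup 1 and 100% in pup 3, the rest being a short noncoding transcript. For Vgf, ENSMUST00000041543.8 held 100% in pup 1 and 85.3% in pup 3. In pup 3 ENSMUST00000190827.2, with 2834 bases against 2553 and the same coding length, held 14.7% on 108 counts with a posterior SD of 30.0. The deposited posterior share of that second Vgf form was 5.05% in pup 1 and 15.9% in pup 3, so the difference between the pups is smaller on that estimate. Chga, Chgb, Scg3, Pcsk1n and Cpe each have a single transcript in the annotation used.

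The shorter Scg2 form, printed above, held 36.2% of Scg2 in pup 1 and 0.34% in pup 3. It was given 90.3 TPM in pup 1, with a deposited interval of 77.4 to 98.3, and 1.31 in pup 3, with an interval of 0.0860 to 3.42. The estimates rest on 3264 counts with a posterior SD of 189 in pup 1, and 66.1 counts with a posterior SD of 48.2 in pup 3. The longer form read 159 and 385 TPM. The interval of the form without the 120 bases thus lay far above 0 in pup 1 and reached close to 0 in pup 3. A change of this size in the leading share, 35.9 percentage points or more, occurred in 35.3% of the 5311 genes, and the median change was 19.3 points.

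**Figure D4:**
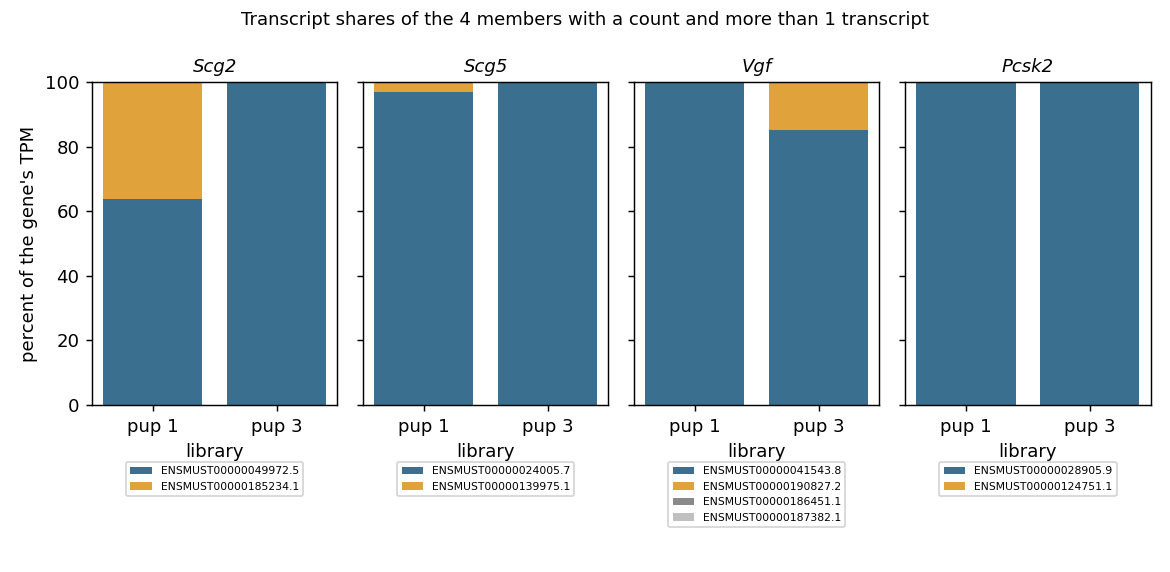
Percent of each gene's TPM on each annotated transcript in pup 1 and pup 3, as stacked bars from 0 to 100. The second Scg2 transcript fills 36.2% of the bar in pup 1 and 0.34% in pup 3, and Pcsk2 is read from 1 transcript in both.

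Counts of the members were almost entirely assigned to them alone. The deposited posterior SD of the gene count was 0 in both libraries for every member with counts except Pcsk2, where it was 0.24 and 0.34 counts. The 4 genes on the other strand that overlap members in GENCODE M21 are Pcsk2os1 and Pcsk2os2 over Pcsk2, Eras over the last 135 bases of Pcsk1n and Gm37871 within Scg3. All were at 0 counts in both libraries. Whether counting used strand is not given in the sources used here, so reads of such partners cannot be told apart from those of the members. The GENCODE M21 models of the members' main coding transcripts differed in GC content, from 40.6% for Pcsk1, whose model there is the longer one, to 64.8% for Vgf. These were the members with the lowest levels, and whether GC content had a part in any level was not tested. Chga at 58.4% and Pcsk1n at 57.3% followed Vgf, and Scg2 had 46.8%, Pcsk2 46.9% and Cpe 49.7%.

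Promoter windows are shown for the members that carry the letters TGACGTCA, a form of the cyclic AMP response element. The reason is that these members include 2 detected granins and the convertase with no counts. RefSeq windows on GRCm38.p6, from 250 bases before to 50 after the gene start, matched 8 of the 10 members; Vgf and Cpe had none. Only the exact letters TGACGTCA were searched, so a window without them can still hold a variant of the element. The motif reads the same on both strands. It was found in Scg2, Chgb and Pcsk1, 3 of the 8 members with a window, against 2.03% of 27025 genes. The 30 bases around it run 5′ to 3′ on the gene's strand, with the motif in capitals, at chr1:79440076-79440105 (minus strand) for Scg2, chr2:132781559-132781588 (plus) for Chgb and chr13:75089768-75089797 (plus) for Pcsk1.
Scg2: ggctgagccggTGACGTCAgcgtggaatgc
Chgb: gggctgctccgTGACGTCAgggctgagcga
Pcsk1: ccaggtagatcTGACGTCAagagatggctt
The motif starts 68, 72 and 78 bases before the RefSeq starts of Scg2 (79440026), Chgb (132781642) and Pcsk1 (75089857), which differ from the outermost GENCODE M21 starts printed above. Against those, the motif lies 26 bases inside Scg2, 292 bases inside Chgb and 47 bases before Pcsk1. The match is a description of the letters, and binding there was not measured.

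The labelled tissue was checked against marker lists. All 10 neuronal genes were detected in both pups, with summed levels of 9936 TPM in pup 1 and 7441 in pup 3, and all 5 glial genes, with 2388 and 2835. Of 14 midbrain genes 7 were detected in both, Slc6a3, Slc18a2, Pitx3 and Otx2 in pup 1 alone, En2 and Pax7 in pup 3 alone and En1 in neither. Over 4-fold apart were 7 of the 14, of which 4 were higher in pup 1 and 3 in pup 3, beside 41.0% of all genes with a count. Among the 8 midbrain genes whose mean TPM reached 20, 2 were called, beside 22.3% of all genes in that class. Granins are also abundant in endocrine tissue, and of 10 pituitary genes 9 were at 0 in both libraries, the exception being Pomc with 6.28 and 0 TPM. The 2 adrenal chromaffin genes and 4 islet genes were at 0 in both, and of 3 serotonergic genes only Slc6a4 was detected in both. In bulk RNA, fewer cells of a type and less RNA per cell cannot be told apart. The order of both sums between the pups rested on 1 gene each. Without Tubb3 the neuronal sum was 4008 TPM in pup 1 and 5647 in pup 3, and without Fabp7 the glial sum was 1003 and 781. Of the neuronal genes 4 were higher in pup 3 and 6 in pup 1, and of the glial genes 2 and 3. The part of these cell types in the members' differences was not tested.

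Around the members, 31 of 59 pathway genes passed the detection limit in both libraries, a further 12 passed it in pup 1 alone and 5 in pup 3 alone, and 11 did not pass it. Of the 49 with a count, 24 were over 4-fold apart, 9 of them higher in pup 3 (17.9% of all tested genes were) and 15 higher in pup 1 (23.1%). These counts stand beside the 41.0% of all genes with a count, and nothing particular to the pathway is read from them.

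Of 17 other convertases and trimming enzymes, 7 passed in both libraries, and 4 passed in none. Pup 1 taken alone had 11 of them and pup 3 had 9. The highest were the cathepsins Ctsl (133 and 154 TPM) and Ctsh (111 and 55.8), which are mainly lysosomal proteases. Mbtps1, a Golgi convertase that activates membrane-bound transcription factors, read 63.8 and 37.8, Qpct, which forms pyroglutamate ends, 38.0 and 27.6, and the aminopeptidase Rnpep 22.9 and 23.7. Over 4-fold apart were 6 of 13. Pcsk7, at 0.03 and 48.4 TPM, and Pcsk5, at 0.40 and 7.79, were higher in pup 3. The other 4 were read in pup 1 and had 0 counts in pup 3, namely Cpxm1 with 44.1 TPM, Qpctl with 14.96, Cpd with 14.9 and Cpxm2 with 2.42. Pcsk4, Pcsk6, Cpm and Cpz were at 0 in both, so like Pcsk1 they were not detected at this depth.

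Of 20 genes of dense-core vesicle formation and release, 13 passed in both libraries, 3 more in pup 1 and 2 more in pup 3. The highest were the SNARE gene Snap47 (760 and 448 TPM), the synaptotagmins Syt4 (246 and 201) and Syt11 (253 and 166), and Ica1 (118 and 78.5). Rab2a (91.2 and 104) and Hid1 (72.8 and 63.7), which act in vesicle formation at the Golgi, were read at similar levels in both pups. Over 4-fold apart were 9 of 19. The related vesicle membrane proteins Ptprn and Ptprn2 went opposite ways, with 33.1 and 0.38 TPM for Ptprn and 0.60 and 31.6 for Ptprn2. Higher in pup 3 were also the priming factor Cadps (1.83 and 32.1), Rab27b (0.62 and 43.3) and Eipr1 (18.6 and 89.8). Higher in pup 1 were Pick1 (40.8 and 1.71), Ccdc186 (17.1 and 0), Ica1l (2.48 and 0) and Cadps2 (0.74 and 0), and Sytl4 was at 0 in both.

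**Figure D5:**
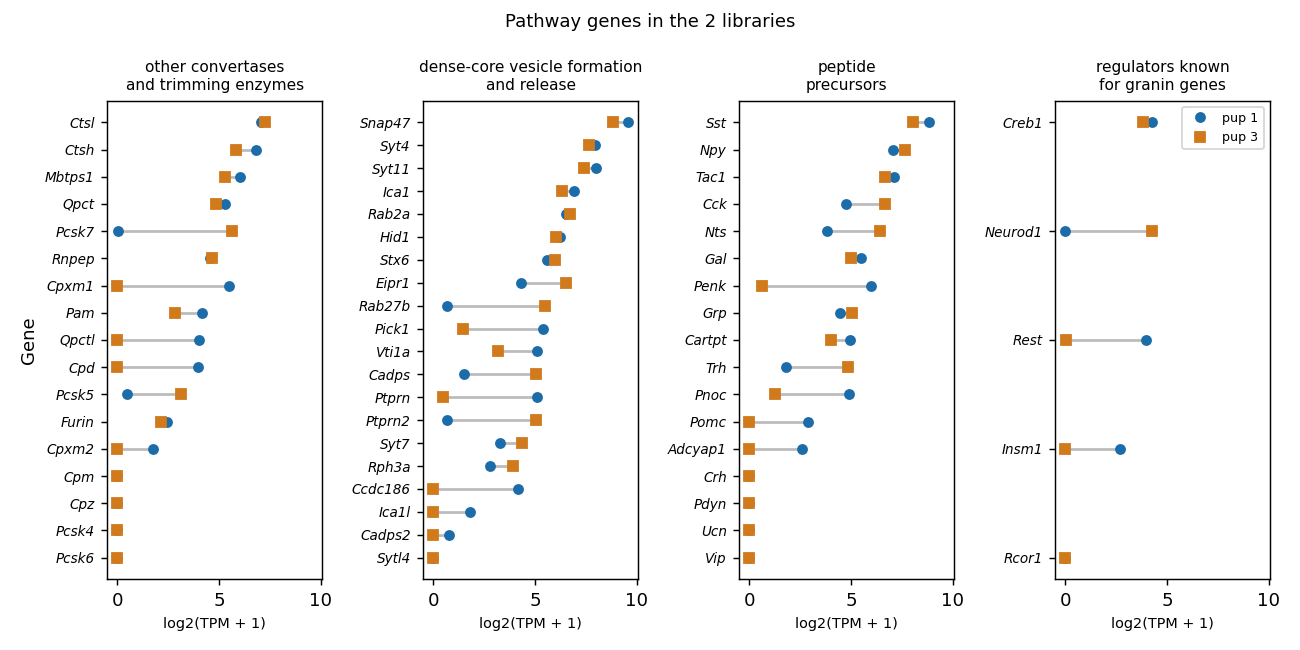
Log2(TPM + 1) of the 59 pathway genes in pup 1 (circles) and pup 3 (squares), joined by a line for each gene, in 4 panels by list. Ctsl, Rab2a and Creb1 have both points close together, while Pcsk7, Ptprn and Rest have 1 point at or near 0.

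Of 17 peptide precursors, the substrates of these enzymes, 10 passed in both libraries and 3 in pup 1 alone, with Pdyn, Vip, Crh and Ucn at 0 in both. Over 4-fold apart were 6 of 13, namely Penk (61.4 and 0.54 TPM), Pnoc (28.7 and 1.43), Pomc (6.28 and 0), Adcyap1 (5.12 and 0), Nts (13.2 and 85.2) and Trh (2.53 and 28.3). Sst (452 and 261), Npy (134 and 199.7), Tac1 (136 and 101), Cck (25.9 and 100.2) and Gal (43.4 and 31.4) were not. Cck came near, with a scaled count ratio of 4.35 whose interval, 3.80 to 5.01, spanned the limit.

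Of 5 regulators known for granin genes, only Creb1, which binds the cyclic AMP response element, was detected in both pups (18.1 and 13.3 TPM). Rest, a repressor of neuronal genes, read 14.9 TPM on 1664 counts in pup 1 and 0.01 TPM on 1 count in pup 3. Insm1 read 5.38 and 0 and Neurod1 0 and 18.2, while Rcor1 was at 0 in both. Rest, Insm1 and Neurod1 were over 4-fold apart, and 3 of the 5 regulators were detected in pup 1 and 2 in pup 3 taken alone.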

How the data were processed

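The 2 libraries, each of 13 pg of midbrain RNA, kept above 200 nucleotides and amplified by a SMART-type protocol with spike-ins, were used as 1 group. Nothing beyond the pup numbers says how separate the material was, and a single donor record is listed with both. Per the file headers and deposited notes, reads were aligned to mm10 with GENCODE M4; no source used here names the aligner, the quantification program or the use of strand. The deposited expected counts are estimates per gene, rounded here for intervals. The deposited TPM is scaled over all rows, including spike-ins and 26248 tRNA rows. The deposited FPKM and posterior mean values served as alternatives, the deposited percent gave transcript shares, and the deposited TPM bounds, a signal column, gave intervals whose level is not stated. Symbols came from a GENCODE table, and genes without one held 0.0904% and 0.139% of counts. Coordinates are GENCODE M21 on GRCm38.

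Intervals of count ratios are exact (Clopper-Pearson, 95%), and the rule was tested on simulated data that held counting error only. Log2 ratios of pairs used a pseudocount of 1, while the folds quoted for pairs are plain ratios of TPM or of its bounds. Members and lists were chosen with earlier results of these data known. Named were all members, both genes of each pair and, per pathway list, the 6 highest genes, those at 0 in both and those over 4-fold apart; marker lists are given by counts, sums and exceptions. Some genes of the pathway lists are not reported here and are left out of the counts. Alternatives covered detection limits of 0.1 and 10 TPM, 10 counts, scaling by edgeR 4.0.16 TMM, DESeq2 1.42.0 size factors, spike-ins or non-mitochondrial totals, 2-fold and 8-fold limits, a pseudocount of 0.1 and 200 counts for transcripts. Python 3.11.15, scipy 1.17.1, pandas 2.3.3, matplotlib 3.10.9 and R 4.3.3 were used.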

Additional observations from a re-analysis of the deposited data

How the results depend on the processing

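Counts of members changed little with the processing. Members detected in both pups numbered 9 under each detection alternative and in either library alone, except for 8 at 10 TPM, where Vgf was lost. None was over 4-fold apart under any of 4 other scalings or with posterior mean counts. The 8-fold limit could call none once 4-fold called none. At 2-fold, tried with library totals, none was called, but the intervals of Cpe (0.492 to 0.512) and Vgf (1.98 to 2.68) spanned that limit. With TMM, DESeq2 and spike-ins the log2 ratio of Cpe was -1.18, -1.19 and -1.10, beyond 2-fold, and the 2-fold rule was not tried there. Pairs with a direction numbered 9 under each alternative value, 10 by sign alone, and 9 to 10 in single libraries. All 4 leading transcripts stayed under 3 alternatives. Pathway genes detected in both numbered 22 to 36 across detection alternatives and 36 to 43 in single libraries; the dense-core vesicle list fell from 13 to 8 at 10 TPM. Scaling by TMM, DESeq2 and spike-ins shifted every log2 ratio of pup 3 over pup 1 by -0.19, -0.20 and -0.11, which turned the ratios of Chga and Chgb below 1. TPM rescaled over protein-coding genes raised the mean of every member with a count, for example that of Chga to 300.0, of Scg5 to 519 and of Cpe to 695. A pseudocount of 0.1 moved the mean log2 ratio of Pcsk2 over Pcsk1 from 4.89 to 8.16, because Pcsk1 was at 0. The sums of marker genes without their highest member were added after seeing the data. No paired analysis was possible because both libraries belong to 1 group.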
